A study of Mus musculus with 6 samples.

Results

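In mouse bone marrow, 21 of 23359 gene symbols were read below 0.5 FPKM in each of 3 Gab2 +/+ libraries and at 2 FPKM or more in each of 3 Gab2 -/- libraries. FPKM is a fragment number scaled by transcript length and by the depth of the library, so levels of different genes can be set side by side. The 21 genes were chosen by these values, and their levels in the 2 groups are therefore a description without a test. Gab1 and Ramp3 met both limits as well and are not described here. Highest in the Gab2 -/- libraries were Adprhl1, Grtp1, Htra3 and Pcdh17, at a mean of 5.35 to 7.49 FPKM, against means of 0.0609 to 0.201 FPKM in the Gab2 +/+ libraries. None of the 21 was an abundant transcript in either group.

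The samples are named NULL (Gab2 -/-, replicates A, B and C) and WT (Gab2 +/+, replicates A, B and C), all from bone marrow of mice, with polyadenylated RNA sequenced as paired ends from stranded libraries. Strain, age, sex, any sorting or transformation of the cells, and the construction of the Gab2 allele were not found in the sources used here, so nothing beyond the Gab2 genotype and the tissue defines the groups. The labels name no separate animals or cultures, so a p-value here reflects the spread between libraries alone, which may be technical. The approximate depth was 67.6, 22.4 and 38.9 M fragments in NULL A, B and C and 51.3, 17.0 and 21.4 M in the WT libraries of the same letters (M, 1000000 fragments). Neutrophil markers, which are abundant in whole marrow, summed to between 0.497 and 0.790 FPKM in NULL and between 0.504 and 0.620 FPKM in WT over 14 genes, 11 of them below 0.1 FPKM in every library. The 20 B-lineage markers summed to between 5547 and 5722 FPKM in NULL and between 3843 and 4193 FPKM in WT. Of the 19 tested, 13 were higher and 3 lower in NULL by limma at an adjusted p of 0.05, where 23.3% of all tested genes were higher and 42.0% lower. Under 3 rescalings 13 to 15 were higher and 2 to 3 lower. In bulk RNA, fewer cells of a type and less RNA per cell cannot be told apart.

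The knocked-out gene itself was read at 0.123, 0.145 and 0.203 FPKM in NULL A, B and C, against 3.33, 3.10 and 2.43 FPKM in the WT libraries of the same letters, and no NULL library reached a WT library. Gab2 lies at chr7:97081586-97308946 on GRCm38. It encodes a scaffolding adaptor that is phosphorylated downstream of cytokine and growth factor receptors and recruits the phosphatase SHP2 and phosphatidylinositol 3-kinase.

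The 21 genes do not form a single known pathway. Several encode proteins of the cell surface or of the space around cells, such as an integrin chain, an ecto-enzyme, a protocadherin, a neurexin, a mucin, a secreted protease and a sulfatase. Others belong to the interferon and major histocompatibility systems, in which interferons acting through STAT and IRF factors induce antiviral and antigen-presenting proteins in leukocytes. A few are better known from tissues other than marrow: RPL3L and ADPRHL1 from striated muscle and heart, GP2 from the exocrine pancreas and neurexins from synapses. FE65, the product of Apbb1, is likewise studied mainly in neurons.

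The promoters below, from 250 bases before to 50 bases after the transcription start, belong to the 4 genes with a NULL mean of at least 5 FPKM and to Itgam, the gene with the highest ratio of its lowest NULL to its highest WT library. They are shown because the set spans promoters rich and poor in CG dinucleotides, which are the letters in capitals. Sequences are from RefSeq on GRCm38.p6 and are written in the direction of transcription. In order, they lie at chr8:13254113-13254412 (minus strand), chr8:13200575-13200874 (minus strand), chr5:35679731-35680030 (minus strand), chr14:84443313-84443612 (plus strand) and chr7:128062390-128062689 (plus strand).
Adprhl1: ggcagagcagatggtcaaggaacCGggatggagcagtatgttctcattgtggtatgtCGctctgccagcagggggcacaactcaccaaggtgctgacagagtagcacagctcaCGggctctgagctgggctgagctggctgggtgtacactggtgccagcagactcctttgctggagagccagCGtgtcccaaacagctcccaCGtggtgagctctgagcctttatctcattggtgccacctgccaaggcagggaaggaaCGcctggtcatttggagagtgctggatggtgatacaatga
Grtp1: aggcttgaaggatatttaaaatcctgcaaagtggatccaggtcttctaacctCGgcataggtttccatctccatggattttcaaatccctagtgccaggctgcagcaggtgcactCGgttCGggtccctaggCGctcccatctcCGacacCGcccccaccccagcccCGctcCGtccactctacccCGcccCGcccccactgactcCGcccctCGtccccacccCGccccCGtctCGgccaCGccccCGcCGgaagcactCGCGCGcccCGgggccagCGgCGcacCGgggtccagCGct
Htra3: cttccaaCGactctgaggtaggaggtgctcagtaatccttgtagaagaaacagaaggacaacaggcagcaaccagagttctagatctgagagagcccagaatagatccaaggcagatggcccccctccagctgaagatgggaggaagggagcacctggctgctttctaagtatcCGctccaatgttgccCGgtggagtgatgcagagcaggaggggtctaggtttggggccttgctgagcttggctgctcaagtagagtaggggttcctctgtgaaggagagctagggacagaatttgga
Pcdh17: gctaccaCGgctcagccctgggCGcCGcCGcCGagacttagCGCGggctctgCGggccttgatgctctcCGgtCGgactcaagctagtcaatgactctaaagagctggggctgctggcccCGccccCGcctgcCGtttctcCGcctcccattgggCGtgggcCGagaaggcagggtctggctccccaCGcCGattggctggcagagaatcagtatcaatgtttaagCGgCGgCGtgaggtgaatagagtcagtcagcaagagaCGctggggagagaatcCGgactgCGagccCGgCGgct
Itgam: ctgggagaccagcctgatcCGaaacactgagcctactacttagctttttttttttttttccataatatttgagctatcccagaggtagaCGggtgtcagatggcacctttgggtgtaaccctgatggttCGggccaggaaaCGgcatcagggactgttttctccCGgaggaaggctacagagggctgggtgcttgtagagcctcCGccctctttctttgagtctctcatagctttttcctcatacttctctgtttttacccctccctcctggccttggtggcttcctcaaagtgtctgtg
Grtp1 and Pcdh17 each hold 26 CG dinucleotides in these 300 bases, Adprhl1 and Itgam 6 each and Htra3 3.

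Limits for a gene to enter the set were a WT maximum below 0.5 FPKM, which 12645 symbols met, and a NULL minimum of 2 FPKM, which 8795 met. The share of symbols meeting both was 0.0899% after the 2 exclusions. The mirrored rule, with WT and NULL exchanged, was met by 11 symbols or 0.0471%. The set makes up 0.239% of the genes at 2 FPKM or more in every NULL library. Nothing is read from these shares, which follow from the limits.

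**Figure D1:**
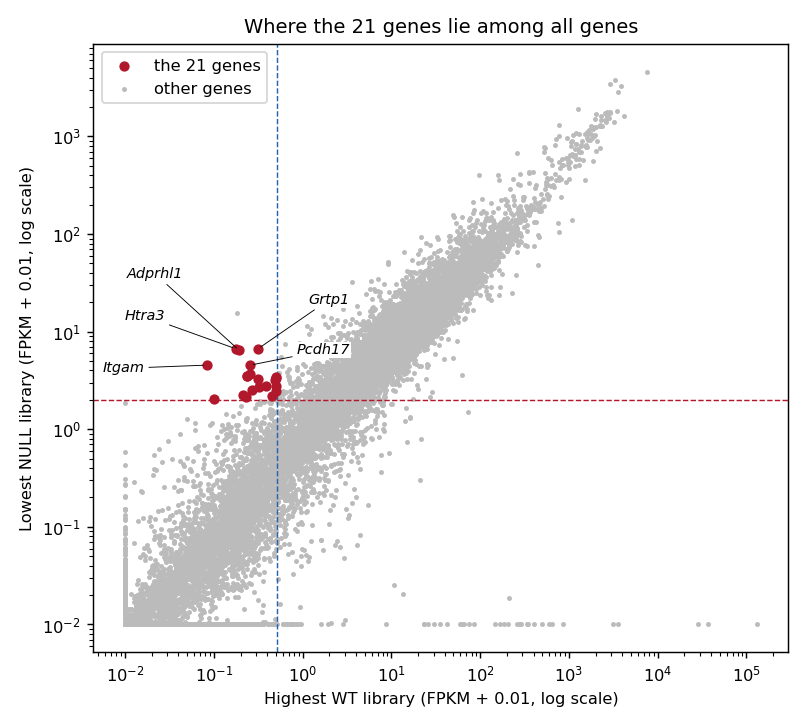
Each point is a gene symbol, with its highest WT library on the x axis and its lowest NULL library on the y axis, both as FPKM + 0.01 on log scales. Dashed lines mark 0.5 FPKM in WT and 2 FPKM in NULL. The 21 genes (red) sit just inside the upper left corner of the cloud, and the grey point among them there is Ramp3, which was left out, as was Gab1.

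NULL means of the 21 genes ran from 2.14 to 7.49 FPKM with a median of 3.58 FPKM, and WT means from 0.0507 to 0.463 FPKM with a median of 0.170 FPKM. Among genes at 2 FPKM or more in every NULL library the median NULL mean was 10.9 FPKM, and the median of the 21 stood at the 10.9th percentile of those genes. The NULL mean was 6.00 to 123 times the WT mean, with a median of 22.7. Ratios rest on few fragments in WT: by the approximate depth, the highest WT library of each gene held about 10.8 to 110.0 fragments, and the lowest about 0 to 35.2. In NULL each library held about 84.3 to 4009 fragments per gene. The coefficient of variation over the NULL libraries had a median of 11.2% in the set and 7.29% among all genes at 2 FPKM or more in every NULL library.

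**Figure D2:**
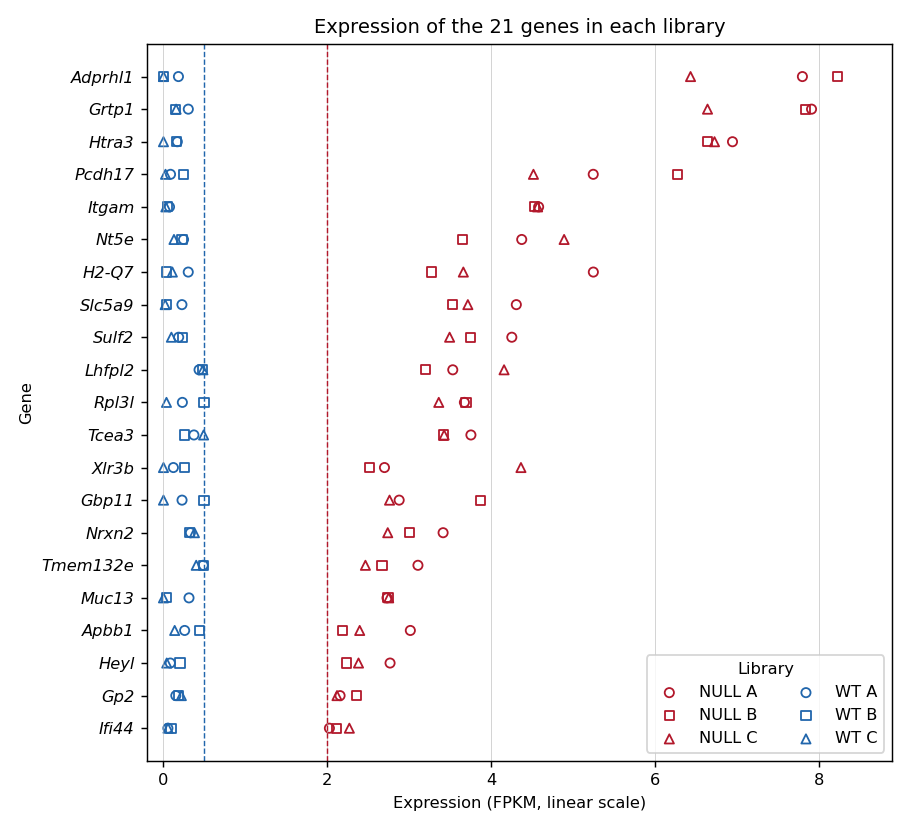
Expression of each gene in the 6 libraries, in FPKM on a linear scale, with genes ordered from the highest NULL mean at the top. Red marks are NULL and blue marks WT libraries, circles, squares and triangles stand for replicates A, B and C, and dashed lines mark 2 FPKM (red) and 0.5 FPKM (blue). NULL libraries spread widely for H2-Q7 and Xlr3b and lie almost on top of each other for Itgam and Muc13.

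Itgam, which encodes the alpha chain of the integrin Mac-1 on myeloid cells, was read at 4.58, 4.53 and 4.57 FPKM in NULL A, B and C, against 0.0738, 0.0493 and 0.0291 FPKM in the WT libraries of the same letters. The lowest NULL library was 61.4 times the highest WT library. In the whole set that ratio ran from 4.96 to 61.4 with a median of 10.8. Nt5e, the ecto-enzyme that makes adenosine from extracellular AMP, measured 4.37, 3.65 and 4.89 FPKM in NULL and 0.245, 0.226 and 0.128 FPKM in WT, in the order A, B and C. Pcdh17, a non-clustered protocadherin of homophilic cell adhesion, measured 5.25, 6.28 and 4.52 FPKM in NULL and 0.0860, 0.244 and 0.0249 FPKM in WT. Its level in NULL B was above those in NULL A and C, and WT B was likewise the highest WT library.

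Nrxn2, a presynaptic adhesion protein in neurons, was read at 3.41, 3.00 and 2.74 FPKM in NULL A, B and C, against 0.329, 0.313 and 0.378 FPKM in the WT libraries. The WT libraries for this gene were among the closest to each other in the set, with a mean of 0.340 ± 0.0338 FPKM (SD, n = 3). Muc13, a transmembrane mucin of epithelia, measured 2.73, 2.74 and 2.75 FPKM in NULL and 0.312, 0.0403 and 0 FPKM in WT. Its NULL libraries differed by a coefficient of variation of only 0.367%, the smallest of the 21, while WT C was listed at 0. Gp2, a glycoprotein with a zona pellucida domain, measured 2.16, 2.35 and 2.12 FPKM in NULL and 0.151, 0.183 and 0.218 FPKM in WT.

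Among other membrane proteins, Slc5a9, a sodium-coupled sugar transporter, was read at 4.31, 3.53 and 3.72 FPKM in NULL A, B and C, against 0.225, 0.0393 and 0.0209 FPKM in the WT libraries. Lhfpl2, a tetraspan membrane protein, measured 3.53, 3.20 and 4.16 FPKM in NULL and 0.434, 0.473 and 0.481 FPKM in WT. Lhfpl2 and Tmem132e had the highest WT means, 0.463 ± 0.0250 and 0.458 ± 0.0501 FPKM (SD, n = 3 each). Tmem132e, a single-pass membrane protein, measured 3.11, 2.67 and 2.47 FPKM in NULL and 0.484, 0.489 and 0.400 FPKM in WT and had the smallest ratio of NULL to WT means, 6.00.

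Of the secreted proteins, the serine protease Htra3 was read at 6.95, 6.64 and 6.73 FPKM in NULL A, B and C, against 0.169, 0.162 and 0 FPKM in the WT libraries. All NULL libraries stood far above all WT libraries and close to each other, at 6.77 ± 0.158 FPKM (SD, n = 3). Sulf2, an extracellular endosulfatase that trims sulfate groups from heparan sulfate, measured 4.25, 3.74 and 3.49 FPKM in NULL and 0.185, 0.228 and 0.0965 FPKM in WT.

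The interferon and class I systems contributed 3 genes. H2-Q7, a nonclassical class I gene that encodes a Qa-2 antigen, was read at 5.25, 3.28 and 3.66 FPKM in NULL A, B and C, against 0.302, 0.0374 and 0.108 FPKM in the WT libraries of the same letters, and NULL A stood above the other NULL libraries. Gbp11, annotated as a polymorphic pseudogene of the guanylate-binding protein family, measured 2.88, 3.87 and 2.76 FPKM in NULL and 0.227, 0.494 and 0 FPKM in WT. WT B was just below the limit and WT C was listed at 0. Ifi44, an interferon-induced gene, measured 2.03, 2.11 and 2.27 FPKM in NULL and 0.0538, 0.0914 and 0.0552 FPKM in WT, the lowest NULL mean of the set. H2-Q7, Gbp11 and Xlr3b have near-identical copies, so fragments may have been shared among copies and their values are uncertain.

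Nuclear factors and an adaptor formed another group. Heyl, a basic helix-loop-helix repressor and Notch target, was read at 2.77, 2.23 and 2.38 FPKM in NULL A, B and C, against 0.0832, 0.202 and 0.0401 FPKM in the WT libraries. Tcea3, an elongation factor of RNA polymerase II, measured 3.75, 3.42 and 3.43 FPKM in NULL and 0.372, 0.256 and 0.490 FPKM in WT. Its WT C library was the highest of the WT libraries, unlike most of the set. Xlr3b, of the X-linked lymphocyte-regulated family, measured 2.70, 2.52 and 4.36 FPKM in NULL and 0.121, 0.260 and 0 FPKM in WT, and NULL C stood apart from NULL A and B. Apbb1, an adaptor that binds the cytoplasmic tail of the amyloid precursor protein, measured 3.01, 2.19 and 2.40 FPKM in NULL and 0.258, 0.441 and 0.137 FPKM in WT.

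The remaining 3 are intracellular proteins. Adprhl1, an ADP-ribosylhydrolase-like protein of the heart, was read at 7.80, 8.23 and 6.43 FPKM in NULL A, B and C, against 0.183, 0 and 0 FPKM in the WT libraries of the same letters. Grtp1, which carries a TBC domain typical of Rab GTPase-activating proteins, measured 7.91, 7.84 and 6.64 FPKM in NULL and 0.303, 0.145 and 0.154 FPKM in WT. For both genes NULL C was the lowest NULL library and WT A the highest WT library. Rpl3l, the striated-muscle paralog of the ribosomal protein RPL3, measured 3.67, 3.69 and 3.36 FPKM in NULL and 0.230, 0.496 and 0.0365 FPKM in WT.

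Single libraries did not contribute evenly to these extremes. NULL A was the highest NULL library for 11 of the 21 genes, and it was the highest NULL library for 44.1% of all tested genes. WT C was the lowest or joint lowest WT library for 14 of the 21 and the lowest for 39.7% of all tested genes. WT C was also the library at 0 for each of the 5 genes with a WT value of 0, which may be a failed estimate: Adprhl1, Htra3, Xlr3b, Gbp11 and Muc13. Adprhl1 was listed at 0 in WT B too, and no gene was at 0 in all WT libraries. Leaving a library out of the rule can only add genes, and without WT C none was added.

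Near the WT limit, the closest genes inside were Rpl3l, Gbp11 and Tcea3, with WT maxima of 0.496, 0.494 and 0.490 FPKM. Just outside were Nr4a1, an immediate-early nuclear receptor, Fam169b and Lyz2, a lysozyme of myeloid cells, with WT maxima of 0.528, 0.532 and 0.554 FPKM and NULL minima of 3.79, 2.14 and 2.31 FPKM. Near the NULL limit, the closest inside were Ifi44, Gp2 and Apbb1, with NULL minima of 2.03, 2.12 and 2.19 FPKM. Dlg3, Tbx6 and Pkp3 were just outside, with NULL minima of 1.98, 1.92 and 1.90 FPKM and WT maxima of 0.487, 0.321 and 0.412 FPKM.

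By position, the 21 genes were spread over 14 chromosomes of GRCm38, 12 on the plus and 9 on the minus strand, and 20 were annotated as protein coding. Chromosome 4 held Slc5a9 (chr4:111875375-111902918), Heyl (chr4:123233556-123249875) and Tcea3 (chr4:136247729-136274898). Chromosome 7, which also carries Gab2, held Apbb1 (chr7:105558483-105581653), Gp2 (chr7:119442537-119459285) and Itgam (chr7:128062640-128118491). Each of these chromosomes thus carried 14.3% of the set, while 6.30% and 7.12% of the genes at 2 FPKM or more in every NULL library lie on chromosomes 4 and 7. From Gab2, Apbb1 lies 8.25 Mb away, Gp2 22.1 Mb and Itgam 30.8 Mb, with 252, 415 and 577 protein-coding genes in between.

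Chromosomes 5, 8 and 17 held a pair each: Htra3 (chr5:35652023-35679782) and Gbp11 (chr5:105323042-105346472), Grtp1 (chr8:13172022-13200620) and Adprhl1 (chr8:13221663-13254162), and Rpl3l (chr17:24727820-24736143) and H2-Q7 (chr17:35439155-35443773). Lone genes of their chromosomes were Sulf2 (chr2:166073089-166155663), Ifi44 (chr3:151730922-151749960), Nt5e (chr9:88327197-88372092), Tmem132e (chr11:82388900-82446332), Lhfpl2 (chr13:94057796-94195409), Pcdh17 (chr14:84443563-84539002), Muc13 (chr16:33794037-33819934), Nrxn2 (chr19:6418731-6544169) and Xlr3b (chrX:73192207-73202930). No member lay on chromosomes 1, 6, 10, 12, 15, 18 or Y.

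**Figure D3:**
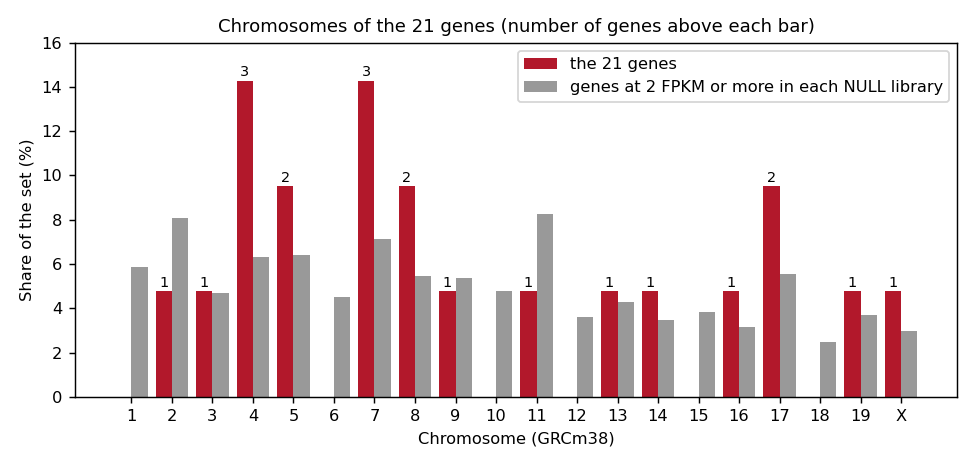
Share of the 21 genes on each chromosome (red bars, with the number of genes above) beside the share of all genes at 2 FPKM or more in every NULL library (grey bars), in percent. Chromosomes 4 and 7 carry 3 genes each and no chromosome more.

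Grtp1 and Adprhl1 were the only members that neighbour each other. They lie 21.0 kb apart on the minus strand of chromosome 8 with 0 protein-coding genes between them, and they are also the highest of the 21 in NULL, at 7.47 ± 0.714 FPKM for Grtp1 and 7.49 ± 0.936 FPKM for Adprhl1 (SD, n = 3 each). In WT they measured 0.201 ± 0.0887 and 0.0609 ± 0.105 FPKM (SD, n = 3 each). Other members of a shared chromosome were separated by 8.60 to 69.6 Mb and by 161 to 373 protein-coding genes. A run was defined as members with at most 3 protein-coding genes between them, and the same single run was found with at most 1 or at most 10.

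Some members overlap other annotated genes, and the sources used here do not say whether strand was used in counting. The end of Grtp1 overlaps the lysosomal membrane gene Lamp1 by 3317 bp on the opposite strand, and Lamp1 was read at 87.1, 92.5 and 91.4 FPKM in NULL and 60.7, 58.9 and 61.8 FPKM in WT. Ncoa3, a nuclear receptor coactivator, overlaps Sulf2 by 154 bp on the opposite strand, at 11.2, 11.6 and 11.2 FPKM in NULL and 11.3, 11.5 and 12.5 FPKM in WT. The predicted gene Gm49368 covers 55809 bp of Itgam on the same strand and has no row of its own in the table. Slc22a12, a urate transporter gene on the strand opposite Nrxn2, was at most 0.143 FPKM in any library, and Xlr5a, opposite Xlr3b, was listed at 0 in all 6. The antisense transcript 9630013A20Rik overlaps Pcdh17 and was read at 0.290, 0.383 and 0.382 FPKM in NULL and 0.00963, 0.0292 and 0 FPKM in WT. What these overlaps contribute to the values was not tested.

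Whether the genes beside the 21 differed too was read from a limma fit over the 9916 genes averaging 1 FPKM or more. In that fit 65.3% of genes passed at an adjusted p of 0.05. They divide into 23.3% of all tested genes that were higher and 42.0% that were lower in NULL. These counts, 2311 higher and 4168 lower, depended on scale. Median-of-ratios rescaling gave 3152 higher and 3238 lower genes, quantile normalization 2822 and 3274, and a common total 2055 and 999. The median log2 change over the tested genes moved with them, at -0.13 as deposited and, in the same order, at 0.010, -0.029 and 0.12. The nearest tested gene on each side of each member, leaving out the members themselves, gave 40 distinct genes at a median distance of 68.9 kb. Their distances ran from 0 to 4574 kb, and 23 of the 40 lay within 100 kb.

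Of these 40 neighbours 26 were called, which is 65.0% and close to the 65.3% of all genes. Neighbours called higher numbered 17 (42.5%, against 23.3% of all tested genes) and those called lower 9 (22.5%, against 42.0%). After median-of-ratios rescaling the counts were 21 higher and 8 lower, where 31.8% and 32.7% of all genes were called higher and lower. Quantile normalization gave 19 and 9 of 39, against 28.5% and 33.0% of all genes. With libraries scaled to a common total the counts were 16 and 2, against 20.7% and 10.0%. The median log2 change of the 40 was 0.17, beside -0.13 for all tested genes, and 31 of the 40 changed by less than 1 on the log2 scale. Xlr4a, H2-Q6, Umod, Gprc5b and Gbp6, all called higher, had WT means below 1 FPKM and passed the filter only through NULL. Their direction is not independent of that filter, and no set test was made on the neighbours.

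The largest called changes were seen beside Xlr3b, H2-Q7, Itgam and Gp2. Xlr4a, a relative of Xlr3b at a distance of 110 kb, was read at 7.54, 7.83 and 8.74 FPKM in NULL and 0.301, 0.628 and 0.110 FPKM in WT (log2 change of FPKM + 1 of 2.76, SE 0.140, limma adjusted p = 1.31e-05). H2-Q6, 9.10 kb from H2-Q7, was read at 8.49, 7.70 and 10.3 FPKM in NULL and 0.685, 0.797 and 0.913 FPKM in WT (log2 change 2.44, SE 0.109, limma adjusted p = 9.29e-06). Both are copies of the family of the member beside them, so the same fragments may count toward member and neighbour.

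Pycard, which encodes the inflammasome adaptor ASC and lies 68.8 kb from Itgam, was read at 12.5, 11.3 and 11.1 FPKM in NULL and 1.95, 1.57 and 1.63 FPKM in WT (log2 change 2.22, SE 0.0818, limma adjusted p = 6.08e-06). Umod, the uromodulin gene 3.43 kb from Gp2, was read at 7.13, 7.14 and 6.84 FPKM in NULL and 0.868, 0.860 and 0.932 FPKM in WT (log2 change 2.09, SE 0.0654, limma adjusted p = 3.69e-06). On the other side of Gp2, at 447 kb, the orphan receptor gene Gprc5b was read at 2.01, 2.20 and 1.87 FPKM in NULL and listed at 0 in all 3 WT libraries, so that no fold can be given (limma adjusted p = 1.31e-05). Gprc5b missed the rule only because NULL C lay below 2 FPKM. It passed the filter of the limma fit only through NULL, so its direction is not independent of the filter. The nearest tested genes on both sides of Gp2 were low in WT, and all NULL libraries of the 3 genes stood above all their WT libraries. Genes that failed the filter were not counted as neighbours.

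Gbp6, another guanylate-binding protein gene and 29.3 kb from Gbp11, was read at 2.45, 2.73 and 2.63 FPKM in NULL and 0.399, 0.705 and 0.265 FPKM in WT (log2 change 1.32, SE 0.118, limma adjusted p = 6.64e-05). Spata6, a gene of spermatogenesis 46.2 kb from Slc5a9, was read at 23.4, 23.1 and 25.6 FPKM in NULL and 10.1, 10.6 and 6.85 FPKM in WT (log2 change 1.32, SE 0.144, limma adjusted p = 0.000152). Acox3, a peroxisomal acyl-CoA oxidase gene 36.7 kb from Htra3, was read at 20.3, 24.04 and 19.3 FPKM in NULL and 8.14, 8.24 and 8.34 FPKM in WT (log2 change 1.26, SE 0.0861, limma adjusted p = 2.89e-05). Of the 8 genes, 7 were also called higher under all 3 rescalings. Gprc5b was called under the 2 that tested it, since it fell out of the filter after quantile normalization. Each of the 8 had all NULL libraries above all WT libraries.

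The other neighbours had log2 changes below 1 or were lower in NULL. Heg1, a transmembrane gene 22.5 kb from Muc13, was higher at 11.4, 11.9 and 12.9 FPKM in NULL and 5.71, 6.42 and 5.23 FPKM in WT (log2 change 0.95, SE 0.0848, limma adjusted p = 6.69e-05), while Umps on the other side of Muc13 fell by 1.06. Afap1, 214 kb from Htra3, was higher by 0.61 (SE 0.0695, limma adjusted p = 0.000184). The Grtp1 and Adprhl1 pair is flanked by Lamp1 and by Dcun1d2, with log2 changes of 0.57 (SE 0.0618, limma adjusted p = 0.000143) and 0.25 (SE 0.0675, limma adjusted p = 0.0115), far below the 2.82 and 3.00 by which Grtp1 and Adprhl1 themselves differed on that scale. Smpd1, the acid sphingomyelinase gene 93 bp from Apbb1, and Trim3 on its other side were higher by 0.74 and 0.73. Heyl stands between Ppie and Pabpc4, which fell by 0.70 and 0.89, and Rpl3l between Ndufb10, which fell by 0.70, and Msrb1, which was not called at -0.14. Neither neighbour was called for Nt5e (Snx14, 4.66 kb away, at 0.037, and 4922501C03Rik at 0.023) or for Tmem132e (Zfp830 at 0.0053 and Tmem98 at 0.10).

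**Figure D4:**
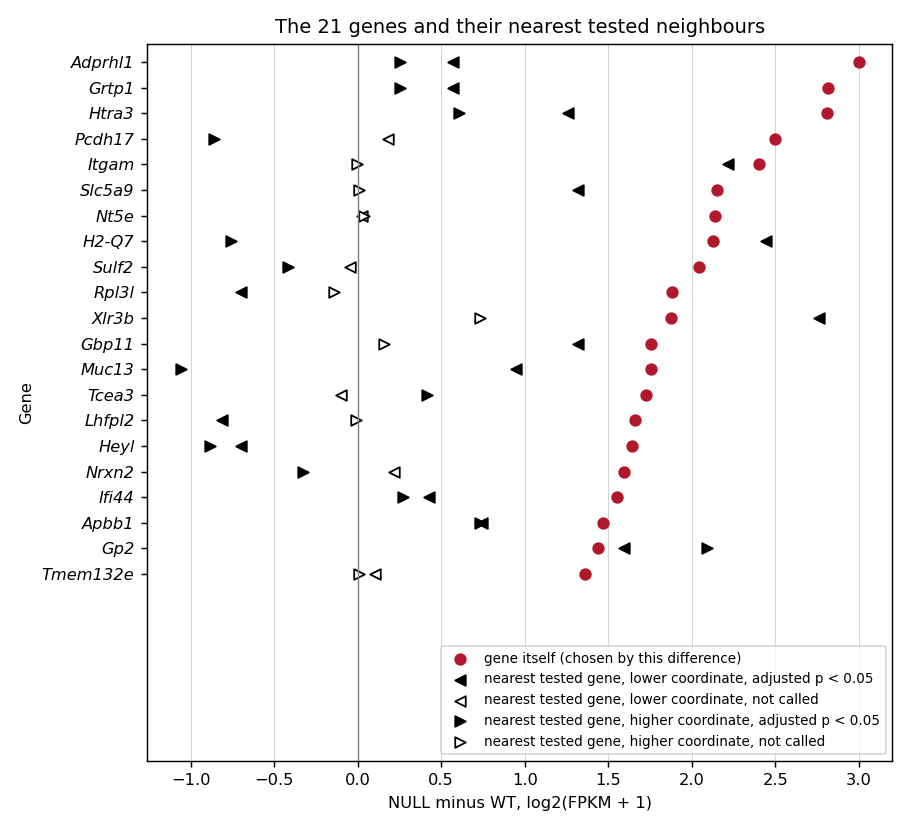
Difference between NULL and WT means of log2(FPKM + 1) for each of the 21 genes (red circles, a description, since this difference chose them) and for the nearest tested gene at the lower (left triangle) and higher (right triangle) coordinate. Filled triangles passed an adjusted p of 0.05 by limma and open ones did not. Neighbours of Gp2 lie to the right of Gp2 itself, while those of Nt5e and Tmem132e lie near 0.

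Relatives by gene family were followed because family was not part of the rule, although near-identical copies may share fragments with a member. The families, drawn up from the symbols once the members were known, held 97 other genes. Of these, 54 were below 0.5 FPKM in every library and 34 were tested, with 19 higher, 9 lower and 6 not called by limma, beside 23.3% higher and 42.0% lower among all tested genes. Median-of-ratios rescaling gave 22 higher and 7 lower (31.8% and 32.7% of all genes), quantile normalization 21 and 6 (28.5% and 33.0%) and a common total 19 and 2 (20.7% and 10.0%). Adprh changed sign in all 3 rescalings, Nt5m in 2 and Adprhl2 in 1, and none of these was called. On the deposited scale the families of H2-Q7, Gbp11 and Xlr3b gave 5 of 5, 6 of 7 and 2 of 3 tested genes higher and 0 lower. Those are the families whose copies may share fragments with the member, so their values are not independent of it. Of the called genes, H2-Q6, H2-Q9, Gbp6, Xlr4a, Xlr4c, Umod and Slc5a5 passed the filter only through NULL, and Itgal only through WT. Xlr4a, Xlr4b, H2-Q6, Gbp6 and Umod were counted among the neighbours as well, so the tallies of relatives and neighbours share genes.

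Qa class I and guanylate-binding protein genes moved in the direction of their member. All 5 tested Qa genes were higher in NULL under each scaling, among them H2-Q9 at 7.51, 8.998 and 9.70 FPKM in NULL A, B and C and 0.362, 0.983 and 0.938 FPKM in the WT libraries. H2-Q5 was read at 17.0, 18.5 and 18.0 FPKM in NULL and 1.45, 2.64 and 2.88 FPKM in WT. Of 7 tested guanylate-binding protein genes 6 were higher on the deposited scale, and of these Gbp7 lost its call under 1 rescaling. Gbp9 measured 24.4, 28.1 and 27.1 FPKM in NULL and 2.99, 5.11 and 1.16 FPKM in WT, and Gbp4 12.9, 14.7 and 14.2 FPKM in NULL and 1.86, 3.01 and 0.954 FPKM in WT. Gbp3 was not called, at 28.6, 28.5 and 30.9 FPKM in NULL and 27.6, 28.8 and 25.5 FPKM in WT, but was called higher under 2 rescalings.

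Of the 34 tested relatives 9 were lower in NULL, where 42.0% of all tested genes were lower. Those named here were chosen as examples after their values were seen. Adprh, Adprhl2 and Apbb3, relatives of other members, were not called on the deposited scale. Rpl3, the ubiquitous counterpart of Rpl3l, was read at 886, 779 and 814 FPKM in NULL and 1224, 1279 and 1589 FPKM in WT, and its call (limma adjusted p = 0.00179) was lost under 1 rescaling. Tcea1, the general form of the elongation factor, was read at 43.1, 43.8 and 47.9 FPKM in NULL and 71.0, 70.0 and 63.9 FPKM in WT, and lost its call (limma adjusted p = 0.000274) under 2 rescalings. Htra2, a mitochondrial protease, was read at 11.8, 10.1 and 10.8 FPKM in NULL and 18.4, 19.96 and 21.6 FPKM in WT, with its call (limma adjusted p = 0.000112) lost under 1. Among the 5 tested intracellular nucleotidases related by name to Nt5e, 4 were lower on the deposited scale, where 42.0% of all tested genes were lower, and of these Nt5c and Nt5c3 were called under no rescaling.

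The common beta-2 integrin chain Itgb2, the partner of the Itgam product, was higher in NULL at 21.6, 20.7 and 21.5 FPKM, against 12.8, 15.3 and 16.5 FPKM in WT (limma adjusted p = 0.00223), and under each rescaling. Itgal, the alternative alpha chain of lymphocyte LFA-1, was lower at 0.803, 0.695 and 0.835 FPKM in NULL, against 2.60, 2.16 and 3.22 FPKM in WT (limma adjusted p = 0.000158), also under each rescaling. The other 2 alpha chains, Itgax and Itgad, were below 0.5 FPKM in every library. A pair of protocadherins besides Pcdh17 were tested and both were higher under each scaling, Pcdh9 at 36.3, 43.7 and 40.1 FPKM in NULL and 21.5, 22.5 and 20.2 FPKM in WT, and Pcdh11x at 11.6, 11.4 and 11.6 FPKM in NULL and 5.33, 5.40 and 3.08 FPKM in WT. The families of Ifi44, Sulf2, Heyl and Muc13 had no other gene at 0.5 FPKM in any library.

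The 21 lists of cell type markers and response genes held only 3 of the 21 genes. Itgam stands in the list of monocyte and macrophage markers. The other 12 genes of that list found in the table summed to between 3.87 and 5.11 FPKM in NULL and between 1.86 and 2.82 FPKM in WT, and 6 of the 13 were below 0.1 FPKM in every library. Cd14, C1qa, C1qb, C1qc and Vcam1 were listed at 0 in all 6 libraries. Lyz2 was the only other tested member, at 2.31, 3.58 and 2.65 FPKM in NULL and 0.554, 0.436 and 0.248 FPKM in WT (log2 change 1.44, SE 0.140, limma adjusted p = 9.19e-05), while the receptor Csf1r was at most 0.144 FPKM in NULL and at most 0.0593 FPKM in WT. With a WT mean of 0.413 FPKM, Lyz2 passed the filter only through NULL, so its direction is not independent of the filter. Ccr2 and Mrc1, both too low to be tested, were lower in every NULL library than in any WT library. Ccr2, a chemokine receptor, was read at 0.0715, 0.0620 and 0.0795 FPKM in NULL and 0.295, 0.225 and 0.511 FPKM in WT, and the mannose receptor Mrc1 at 0.151, 0.189 and 0.148 FPKM in NULL and 0.275, 0.331 and 0.696 FPKM in WT. The part of myeloid cells in the Itgam values was not tested.

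Ifi44 stands in the interferon-response list, where 8 other genes were tested and 7 were higher and 1 lower by limma, beside 23.3% higher and 42.0% lower among all tested genes. Of those higher, Oas1a, Irf7 and Usp18 had WT means of 0.253, 0.420 and 0.673 FPKM and passed the 1 FPKM filter only through NULL. Their direction is therefore not independent of the filter. The single lower gene, Ifit2, kept its call after quantile normalization only and changed sign after rescaling to a common total. Oas1a, an antiviral oligoadenylate synthetase, was read at 2.03, 1.85 and 2.03 FPKM in NULL and 0.201, 0.417 and 0.140 FPKM in WT, missing the rule because NULL B lay below 2 FPKM. Irf7, a transcription factor of the interferon response, measured 2.04, 1.54 and 1.77 FPKM in NULL and 0.502, 0.483 and 0.275 FPKM in WT. Other classic interferon-induced genes were low in both groups, with Mx1 at most 0.295 FPKM in NULL and 0.147 FPKM in WT. The 19 genes of the list other than Ifi44 summed to between 78.7 and 85.9 FPKM in NULL and between 31.2 and 41.0 FPKM in WT.

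H2-Q7 stands in a list of genes known to vary between inbred mouse strains, of which 15 others were tested, 8 higher and 5 lower, beside 23.3% higher and 42.0% lower among all tested genes. The counts were 9 and 5 after median-of-ratios rescaling and 8 and 5 under the other 2. Of the 5 lower, Trim12a, Trim30d, Beta-s and Hbb-b1 had NULL means of 0.917, 0.868, 0.0327 and 0.000193 FPKM. They passed the 1 FPKM filter only through WT, so their direction is not independent of the filter. Beta-s and Hbb-b1 were read at 23.2 and 58.7 FPKM in WT C, against at most 2.85 and 8.31 FPKM in WT A and B. Trim12a of that list was read at 0.727, 0.882 and 1.14 FPKM in NULL and 10.9, 15.0 and 11.4 FPKM in WT, and Trim30a at 25.6, 25.8 and 29.4 FPKM in NULL and 11.2, 11.5 and 8.56 FPKM in WT. The sources used here do not name the strain of either group, so genotype at Gab2 and strain cannot be told apart for H2-Q7 and the other genes of the list. Germ line markers, which share testis expression with some X-linked members of the Xlr family, were below 0.1 FPKM in every library for 15 of 16 genes. Muscle markers were below that level in every library for 6 of 7 genes and neural markers for 7 of 12. The germ line markers summed to between 0.85 and 1.67 FPKM in NULL and between 0.093 and 0.45 FPKM in WT. The neural markers summed to between 18.4 and 25.6 FPKM in NULL and between 38.3 and 49.4 FPKM in WT, with Tubb3 the highest.

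Promoter sequences were found for 17 of the 21 genes, all but Gbp11, Heyl, Nrxn2 and Slc5a9. The ratio of observed to expected CG dinucleotides had a median of 0.487 and ran from 0 for Muc13 to 0.858 for Lhfpl2. With a limit of 0.6, 7 of the 17 promoters (41.2%) were rich in CG: Grtp1, Pcdh17, Lhfpl2, Tmem132e, Apbb1, Tcea3 and Nt5e. That share was 49.4% over all 16345 promoters of the table, 79.7% over 6616 genes at 2 FPKM or more in every NULL library and 23.0% over 8093 genes below 0.5 FPKM in all 6 libraries. The neighbours Grtp1 and Adprhl1, printed above, differed in this respect at 0.851 and 0.249, and Htra3, Itgam and Pcdh17 were at 0.146, 0.316 and 0.822.

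**Figure D5:**
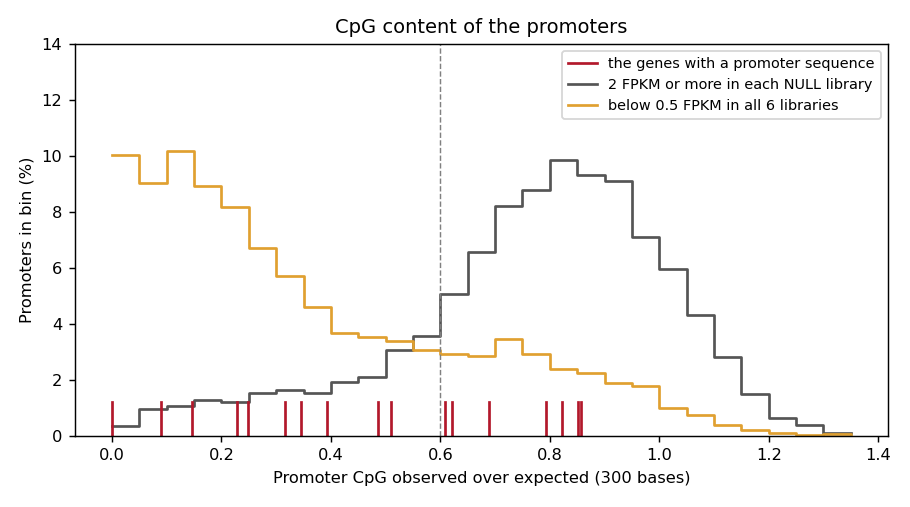
Distribution of the observed over expected ratio of CG dinucleotides in 300-base promoters, as the percent of promoters per bin, for genes at 2 FPKM or more in every NULL library (grey line) and genes below 0.5 FPKM in all 6 libraries (orange line). Red ticks are the 17 members with a promoter sequence, and the dashed line marks 0.6. The ticks are spread from 0 to 0.858 and stand under both distributions.

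Short motifs were searched on both strands of the 300 bases, and each match is only a string of letters. TATAAA was found in 2 of 17 promoters (11.8%, Gp2 and Sulf2), against 12.8% of all promoters. The E-box CACGTG was found in Adprhl1 and Tmem132e (11.8%, against 8.25%) and the E-box CAGCTG in Htra3, Rpl3l and Sulf2 (17.6%, against 15.7%). GAAANNGAA, a string of interferon regulatory factor sites, was found in Htra3 and Ifi44 (11.8%, against 8.03%). TTCNNNGAA of STAT sites and TGANTCA of AP-1 sites were each found in Muc13 alone (5.88%, against 8.02% and 7.26%). The strings TGACGTCA, GTAAACA and ACTTCCG were in none of the 17, against 2.37%, 2.93% and 8.80% of all promoters. With 17 promoters, a single gene makes up 5.88%, and none of these shares was tested.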

How the data were processed

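Polyadenylated RNA of mouse bone marrow was measured in 6 libraries, 3 NULL and 3 WT, grouped by the sample titles. The deposited values are FPKM per gene symbol, made by the authors with Bowtie and Cufflinks on mm10 or GRCm38, per the submitters' processing notes, which give no versions or roles. The sources used here do not give the annotation, or say whether libraries were scaled to each other. The table had 23848 rows, and a repeated symbol was represented by its row of highest mean. Library tables and the series-wide table disagreed in 0 values.

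The members, the gene lists and the alternatives were chosen with earlier results of these data known. Genes were kept when below 0.5 FPKM in each WT library and at least 2 FPKM in each NULL library, leaving out small RNA and numbered Gm symbols (0 were removed), Gab1 and Ramp3. Every member is named with its values. Further genes named are the 3 nearest outside each limit, the 8 called neighbours with the largest log2 change, and other neighbours and genes of lists and families chosen as examples after their values were seen.

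The whole table was fitted with limma (version 3.58.1, under R 4.3.3) after taking log2(FPKM + 1) of genes averaging 1 FPKM or more, with a variance trend. P-values were two-sided and adjusted by Benjamini-Hochberg, with 0.05 as the threshold. Fold changes on this scale understate those of weakly expressed genes. The filter averages both groups, so a gene that is low in 1 group can pass through the other alone. Of the steps, only the limma fit was tested on simulated data. Positions come from GENCODE vM21 on GRCm38, to which 21724 symbols matched by name, 1272 by an older name and 363 not at all. Depth was approximated from the step between low FPKM values and transcript length, so no counting interval is given. Alternatives were other limits, pseudocounts, filters, scalings, moderation settings, a replicate block and leaving out each library.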

Additional observations from a re-analysis of the deposited data

How the results depend on the processing

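The number of genes in the set followed its limits: 2 and 10 with a WT limit of 0.1 and 0.25 FPKM, 62 with 1 FPKM, 74 with a NULL minimum of 1 FPKM and 3 with 5 FPKM. It was 24 after median-of-ratios rescaling (all 21 kept), 24 after rescaling to a common total (20 kept, Tmem132e lost) and 14 after quantile normalization, where Gbp11, Gp2, Ifi44, Lhfpl2, Rpl3l, Tcea3 and Tmem132e were lost. Leaving out each library can only add genes and gave 21 to 27, with 5825 to 6488 genes called in the whole table and 24 to 27 neighbours called. Rescaling to a common total lowered the genes called to 3054, and the cause was not tested. Neighbours called numbered 14 with a filter at a mean of 5 FPKM, where 21 were tested, and 16 within 100 kb, where 23 were, since both leave fewer genes. The 8 named neighbours kept their direction and call in each alternative that tested them. With a replicate block on the letter, 5844 genes and 27 neighbours were called. Deviations of libraries with the same letter correlated at 0.073 (A), 0.36 (B) and 0.13 (C), so the letters were not taken as pairs. Each WT library correlated best with the NULL library of its letter, a hint from the data only. Levels near 0.5 FPKM rest on few fragments in the shallower WT libraries.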
